A study of Mus musculus with 8 samples.

Results

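The genes described here encode the drug-metabolizing enzymes of 4 families, as measured in hepatic macrophage samples of mice given acetaminophen. The families are cytochrome P450s (Cyp), glutathione S-transferases (Gst), sulfotransferases (Sult) and UDP-glucuronosyltransferases (Ugt). Markers of other liver cells were also high in these samples, as given below, so the levels are not assigned to macrophages. A gene was taken as a member when an array row carried exactly 1 gene symbol and that symbol began with Cyp and a digit, with Gst, a class letter and a digit, or with Sult or Ugt and a digit. Where several rows named a gene, the row of highest mean was used. This gave 148 members out of 22180 genes tested, of which 98 were P450s, 18 GSTs, 21 SULTs and 11 UGTs. All 148 symbols matched a current RefSeq gene. Among the P450s, 4 carry pseudogene symbols (Cyp2c53-ps, Cyp2d37-ps, Cyp4b1-ps2 and Cyp4f41-ps). They are counted with the enzyme genes throughout, and 2 of them lay above the detection level defined below. A further 15 rows carried several symbols, at least 1 of them from these families, and were left unnamed. As a result 19 family genes had no row of their own, among them 8 Ugt1a genes, Gsta1 and Gsta2, and these are not analysed here.

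RNA was measured on 8 Affymetrix arrays of hepatic macrophages from male FVB/N mice aged 8 weeks. The mice received recombinant carbamoyl phosphate synthetase 1 (rCPS1, 50 µg) or recombinant tissue factor (rTF, 25 µg) by tail vein, and 12 h later acetaminophen at 350 mg/kg, with 4 arrays in each group. CPS1 is the urea cycle enzyme of hepatocyte mitochondria, and tissue factor starts blood coagulation. Every array came from mice given both a protein and acetaminophen, so no array showed these genes without the drug, and the protein and its amount changed together. The labels do not settle whether the 4 arrays of a group came from separate mice, so the tests measure the spread between arrays, part of which may be technical.

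Acetaminophen is cleared mainly by conjugation in hepatocytes, where UGTs attach glucuronic acid and SULTs attach sulfate. A smaller share is oxidized by P450s, chiefly CYP2E1, to the reactive quinone imine NAPQI, which GSTs and spontaneous reaction join to glutathione. These families are known for their high expression in hepatocytes, although many members serve other substrates such as sterols, retinoids, fatty acids and eicosanoids and are expressed in other cells.

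Levels are given as deposited, on the log2 scale of array intensity, and every difference is rCPS1 minus rTF with its standard error from limma. A probe set reports each gene with its own efficiency, so levels of different genes can be compared only roughly. Detection, the median gene and the choice of genes of highest mean rest on such comparisons and depend in part on probe efficiency. To say which genes were detected, a background was taken from 1443 chemosensory receptor genes, which are expressed mainly in sensory tissues. The 95th percentile of their means over the 8 arrays was 3.18, called the silent-gene level below, against a median of 4.19 over all 22180 genes. By construction 73 of the 1443 receptor genes lay above it.

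The arrays held transcripts of several liver cell types. The macrophage markers averaged 9.88 ± 0.055 in the rCPS1 arrays and 10.03 ± 0.11 in the rTF arrays (SD, n = 4 each), and the 9 Kupffer cell markers averaged 9.18 ± 0.43 in the rCPS1 arrays and 8.97 ± 0.33 in the rTF arrays. All 20 measured hepatocyte markers lay above the silent-gene level, and albumin stood at 11.36 in the rCPS1 arrays and 11.43 in the rTF arrays. The hepatocyte mean was 7.49, 7.42, 7.32 and 6.89 in the rCPS1 arrays and 7.42, 7.19, 7.68 and 7.16 in the rTF arrays. Its difference was -0.084 (exact permutation p = 0.686, two-sided). The single markers did not move alike. On rTF replicate 3, where the mean was highest, 16 of 20 were above their own mean and Fgg peaked at 9.54. Fabp1, Hpd and Tat had their lowest values there, at 6.19, 8.07 and 8.77. The mean, also as a covariate, therefore does not stand for every hepatocyte gene. Sinusoidal endothelial markers averaged 11.63 in the rCPS1 arrays and 11.61 in the rTF arrays. The 8 neutrophil markers averaged 6.34 ± 0.56 in the rCPS1 arrays and 7.58 ± 0.40 in the rTF arrays, with no overlap (exact permutation p = 0.0286, two-sided, the smallest that 4 against 4 arrays allow, and 0.114 after Benjamini-Hochberg adjustment over the 12 marker lists). Monocyte markers averaged 7.65 ± 0.12 in rCPS1 and 8.29 ± 0.16 in rTF, also without overlap. The other lists overlapped between groups apart from the macrophage markers: T and NK cell markers averaged 6.43 in rCPS1 and 6.83 in rTF, B cell markers 6.37 in rCPS1 and 6.19 in rTF, stellate cell markers 5.20 in rCPS1 and 5.36 in rTF, and bile duct markers 4.20 in rCPS1 and 4.07 in rTF. Pericentral hepatocyte markers averaged 5.50 in rCPS1 and 5.43 in rTF, and periportal ones 5.58 in rCPS1 and 5.77 in rTF. Of all these markers, Slc1a2 and Klrb1c alone lay under the background level defined above. In such mixtures fewer cells of a type and less RNA per cell cannot be told apart, and beyond a fit with the hepatocyte mean as a covariate the part of these markers in the values below was not tested.

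Of the 148 enzyme genes, 74 (50%) lay above the silent-gene level, against 13568 of all 22180 genes (61.2%). Of the GSTs, 16 of 18 (88.9%) were above it, and 13 of them were also above the median gene. Among the P450s 45 of 98 (45.9%) were above the level, among the UGTs 6 of 11 (54.5%), and among the SULTs 7 of 21 (33.3%). Within the P450s all 3 CYP1 genes, 20 of 50 CYP2 genes, 1 of 7 CYP3 genes (Cyp3a11), 10 of 20 CYP4 genes and 11 of 18 genes of the other P450 families passed. By class, the GSTs under the level were 1 of 6 mu and 1 of 4 theta genes. SULT1 had 3 of 6 genes above it and SULT2 2 of 9, and of the UGTs 5 of 8 UGT2 genes and Ugt8a passed. Member means ran from 1.20 for Cyp2c40 to 9.81 for Gstp1. The cut has no natural gap around it, since Cyp2j13, Cyp2c50 and Cyp2c39 lay just under it at 3.15, 3.13 and 3.11 and Sult6b1, Cyp26c1 and Cyp2c54 just above it at 3.19, 3.21 and 3.25. With the 99th percentile of the receptor genes (4.44) in place of the 95th, 45 members passed.

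**Figure D1:**
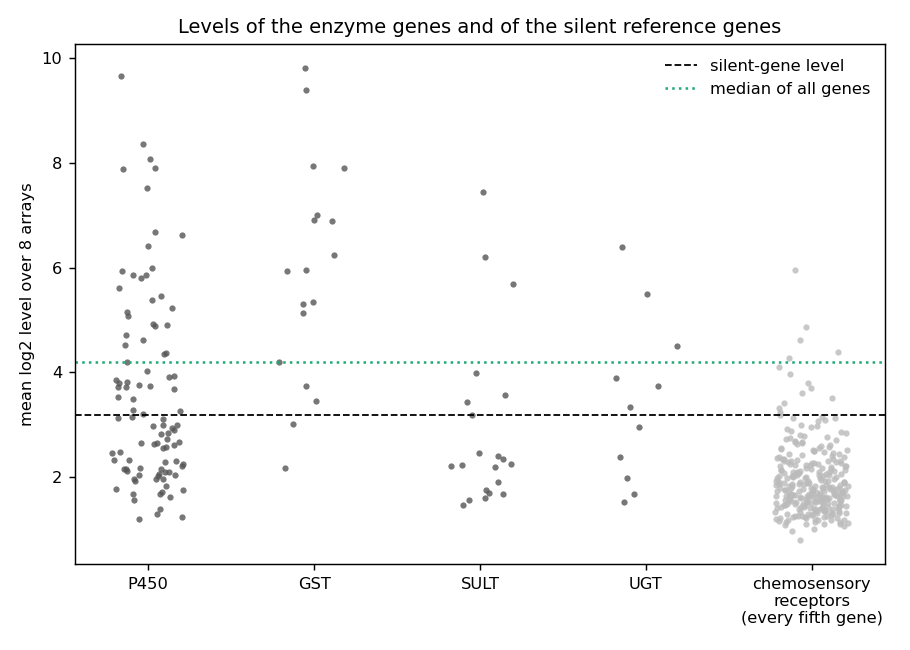
Mean log2 level over the 8 arrays of each of the 148 enzyme genes, by family, beside an evenly spaced sample of the chemosensory receptor genes ranked by level. The dashed and dotted lines mark the silent-gene level of 3.18 and the median of all genes at 4.19, and 16 of 18 GSTs lie above the lower line, against 7 of 21 SULTs.

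No gene of the 22180 passed an adjusted p of 0.05 between rCPS1 and rTF (0%, limma with Benjamini-Hochberg adjustment over all genes, smallest adjusted p 0.862), and 1035 genes had an unadjusted p under 0.05. No enzyme gene passed either, with a smallest adjusted p of 0.98. At an unadjusted p under 0.05, 5 enzyme genes (3.38%) were higher in rCPS1 and 6 (4.05%) lower, against a background of 1.88% higher and 2.79% lower over all genes. The 4 rCPS1 arrays lay wholly above the 4 rTF arrays in 2 enzyme genes (1.35%) and wholly below in 1 (0.676%), against 0.947% and 1.97% of all genes. With the hepatocyte mean as a covariate 9 enzyme genes in place of 11 had an unadjusted p under 0.05. Leaving out rTF replicate 1 gave 7 enzyme genes (4.73%), against 5.59% of all genes, so the members' share was then below that of all genes, where with all arrays it was 7.43% against 4.67%. These shares rest on single-digit counts of genes, and the values below are descriptions of genes that did not pass the test. Over the 148 members 78 differences were above 0 and 70 below, with a median of 0.018, beside 10123 above and 12057 below with a median of -0.018 over all genes.

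The acetaminophen-handling genes were read from lists of 22 genes, 15 of which had a row of their own. Of these 15, 13 lay above the silent-gene level, the exceptions being Cyp2a5 and Sult2a1. All 5 listed glucuronidation genes belong to the Ugt1a cluster, and with Gsta1 and Gsta2 they make up the 7 not analysed here.

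Among the oxidizing P450s, Cyp2e1, the main producer of NAPQI, was clearly above background on every array. It stood at 7.73, 7.94, 7.70 and 6.74 in the rCPS1 arrays and at 8.17, 7.28, 7.64 and 6.95 in the rTF arrays. The groups overlapped throughout, and the mean was 7.53 ± 0.53 in rCPS1 and 7.51 ± 0.52 in rTF (SD, n = 4 each). The difference was 0.02 ± 0.30, with a 95% interval from -0.66 to 0.70.

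Cyp1a2, a second acetaminophen oxidase of hepatocytes, was 4.76, 4.70, 4.68 and 4.26 in the rCPS1 arrays and 5.52, 4.42, 4.54 and 4.05 in the rTF arrays. Its difference was -0.03 ± 0.28, and both the highest and the lowest array were rTF arrays. Cyp3a11, the main hepatic CYP3A of the mouse, was 4.22, 3.91, 4.27 and 3.94 in the rCPS1 arrays and 4.43, 2.03, 4.81 and 3.83 in the rTF arrays. Only rTF replicate 2 fell under the silent-gene level, and the difference was 0.31 ± 0.49. Cyp2d22, of the CYP2D subfamily that also oxidizes acetaminophen, was 8.44, 8.43, 8.37 and 8.47 in the rCPS1 arrays and 7.99, 8.49, 8.35 and 8.37 in the rTF arrays. All arrays but rTF replicate 1 lay between 8.35 and 8.49, and the difference was 0.13 ± 0.12. Cyp2a5, the coumarin hydroxylase, was under the silent-gene level at 1.87 ± 0.22 in rCPS1 and 2.06 ± 0.23 in rTF.

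For sulfation, Sult1a1, the phenol sulfotransferase, was 7.63, 7.59, 7.56 and 6.85 in the rCPS1 arrays and 7.65, 7.58, 7.43 and 7.27 in the rTF arrays. Only rCPS1 replicate 4 stood below the rest. The difference was -0.08 ± 0.18 (95% interval -0.48 to 0.33). Sult1e1, the estrogen sulfotransferase, lay near the silent-gene level at 3.10, 3.65, 3.78 and 3.42 in the rCPS1 arrays and 3.79, 4.07, 3.05 and 3.63 in the rTF arrays. Its difference was -0.15 ± 0.22. Sult2a1, a hydroxysteroid sulfotransferase, was not above background, at 1.84 in rCPS1 and 1.99 in rTF.

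**Figure D2:**
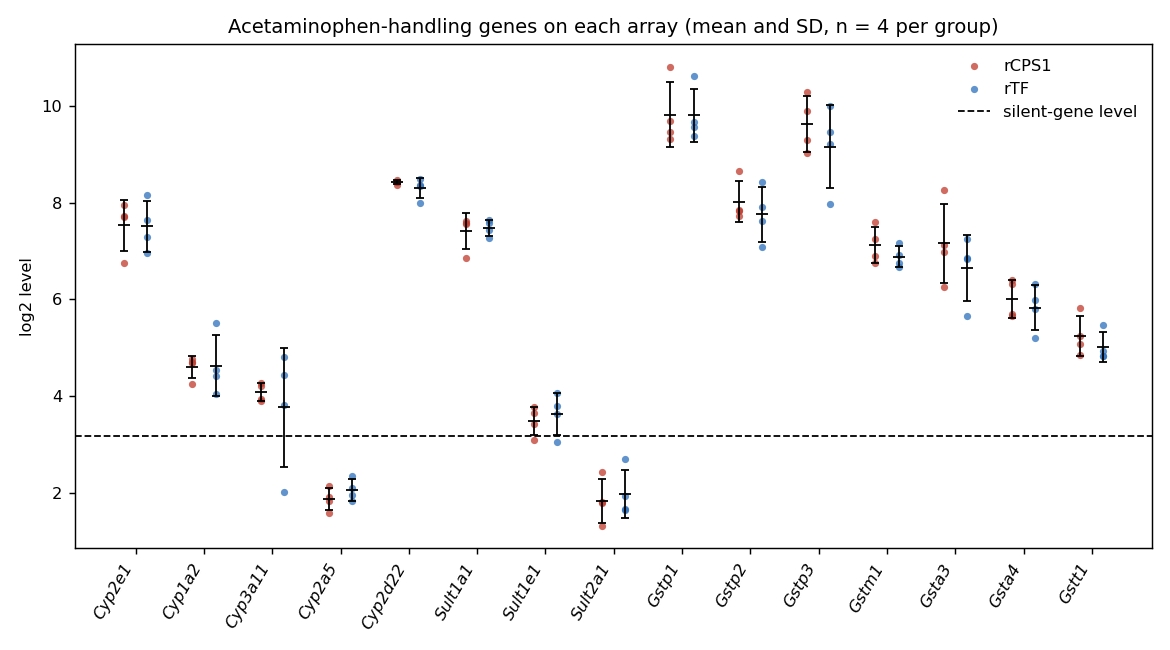
Log2 level on each array of the 15 measured genes of the acetaminophen lists, by step, with rCPS1 points left of rTF points, black marks and bars for the mean and SD of each group (n = 4) and the silent-gene level as a dashed line. The 2 groups overlap in every one of these genes, and Cyp2a5 and Sult2a1 lie under the line.

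All 7 measured genes of the glutathione conjugation list were detected, and all 7 had a higher mean in rCPS1, with a median difference of 0.24 and no unadjusted p under 0.05. Over the whole family 15 of 18 GST differences were above 0 and 3 below, with a median of 0.14. Over all genes 10123 were above 0 and 12057 below, with a median of -0.018. GST levels moved together on single arrays, as given below, so these genes do not count as independent observations. The direction was not particular to GSTs: 9 of 9 Kupffer cell markers and 9 of 10 listed other drug enzymes were also above 0, but 6 of 20 hepatocyte markers. The pi class enzymes, which conjugate NAPQI and are encoded by a cluster of like genes, were detected on all 8 arrays. Gstp1 was 10.81, 9.32, 9.46 and 9.70 in the rCPS1 arrays and 10.61, 9.66, 9.57 and 9.38 in the rTF arrays. Replicate 1 of each group was the highest and the remaining arrays interleaved, so the difference was 0.02 ± 0.35 (95% interval -0.76 to 0.80).

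Gstp2 was 8.65, 7.83, 7.85 and 7.74 in the rCPS1 arrays and 8.44, 7.63, 7.08 and 7.91 in the rTF arrays, a difference of 0.25 ± 0.29. Gstp3 was 10.30, 9.02, 9.89 and 9.29 in the rCPS1 arrays and 9.99, 9.45, 7.97 and 9.22 in the rTF arrays, a difference of 0.47 ± 0.41 (95% interval -0.45 to 1.38). Both were lowest on rTF replicate 3 and highest on rCPS1 replicate 1. Whether the probes separate the pi class genes fully was not checked.

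The promoter windows of the 3 pi class genes, all of them highest on replicate 1 of each group, are shown. Each runs from 250 bases before to 50 after the annotated start (RefSeq, GRCm38.p6). Gstp1 lies at chr19:4037863-4038162, Gstp2 at chr19:4042172-4042471 and Gstp3 at chr19:4059398-4059697, all on the minus strand and printed 5′ to 3′. Capitals mark matches to the AP-1-type motif TGANTCA, which was searched on both strands.
Gstp1: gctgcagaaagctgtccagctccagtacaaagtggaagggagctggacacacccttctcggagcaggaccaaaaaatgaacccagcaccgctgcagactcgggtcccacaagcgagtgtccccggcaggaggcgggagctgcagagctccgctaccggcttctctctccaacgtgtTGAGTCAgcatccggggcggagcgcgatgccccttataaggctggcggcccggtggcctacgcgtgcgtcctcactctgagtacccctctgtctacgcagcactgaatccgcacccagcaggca
Gstp2: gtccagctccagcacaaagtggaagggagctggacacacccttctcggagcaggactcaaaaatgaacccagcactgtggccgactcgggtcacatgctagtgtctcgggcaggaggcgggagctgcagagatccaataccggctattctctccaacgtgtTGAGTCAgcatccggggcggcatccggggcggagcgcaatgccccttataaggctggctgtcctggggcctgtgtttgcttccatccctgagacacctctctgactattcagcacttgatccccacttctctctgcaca
Gstp3: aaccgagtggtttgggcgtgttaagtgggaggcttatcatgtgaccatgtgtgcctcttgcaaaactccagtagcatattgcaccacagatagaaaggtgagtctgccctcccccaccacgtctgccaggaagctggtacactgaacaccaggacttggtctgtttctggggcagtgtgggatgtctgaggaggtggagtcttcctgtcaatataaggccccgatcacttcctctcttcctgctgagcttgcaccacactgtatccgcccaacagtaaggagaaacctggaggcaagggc
Gstp1 and Gstp2 each held 1 match, 74 and 89 bases before the start, and the Gstp3 window held none. The motif was found in 7.81% of the 32851 promoter windows of the genome and in 12.0% of the 133 windows of member genes. After alignment the Gstp1 and Gstp2 windows were 77.1% identical, against 52.3% for Gstp1 and Gstp3 and 50.8% for Gstp2 and Gstp3. A match describes letters in the window and no binding was measured. Gstp3, with no match, was highest on the same arrays as Gstp1 and Gstp2, and a part of the motif in that pattern was not tested.

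In the mu class, Gstm1, which conjugates many electrophiles including NAPQI, was 7.59, 7.25, 6.90 and 6.76 in the rCPS1 arrays and 7.17, 6.68, 6.93 and 6.76 in the rTF arrays (difference 0.24 ± 0.19). In the alpha class, Gsta3 was 8.26, 6.27, 6.98 and 7.12 in the rCPS1 arrays and 6.83, 7.26, 5.66 and 6.85 in the rTF arrays. Its spread within a group exceeded the difference of 0.51 ± 0.43. In the theta class, Gstt1 was 5.82, 4.85, 5.25 and 5.08 in the rCPS1 arrays and 5.48, 4.93, 4.82 and 4.84 in the rTF arrays, with replicate 1 again the highest of each group (difference 0.23 ± 0.22).

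Gstt3 was 5.49 ± 0.11 in rCPS1 and 5.18 ± 0.37 in rTF. Gsta4, which clears the lipid peroxidation product hydroxynonenal, differed by 0.18 ± 0.25. Gstk1, the kappa class enzyme of mitochondria and peroxisomes, differed by 0.01 ± 0.25. Gsto1, an omega class thioltransferase, differed by 0.07 ± 0.13. The differences below 0 included Gstm2 at -0.10 ± 0.18 and Gstm6 at -0.26 ± 0.13.

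GST levels moved together on single arrays. The median deviation of the 16 detected GSTs from their own means was 0.37, -0.07, 0.02 and -0.12 in the rCPS1 arrays and 0.13, 0.07, -0.23 and -0.08 in the rTF arrays. On rCPS1 replicate 1, 13 of the 16 were above their own mean, and on rTF replicate 3, 2 of the 16. For the 3 pi class genes the same medians were 0.91, -0.37, -0.04 and -0.12 in the rCPS1 arrays and 0.60, -0.15, -0.81 and -0.17 in the rTF arrays. The detected P450s did not follow this order, with medians of 0.06, -0.06, 0.12 and -0.03 in the rCPS1 arrays and -0.04, 0.06, -0.09 and 0.00 in the rTF arrays. On the same arrays the Kupffer marker mean was 9.38, 8.79, 9.69 and 8.86 in rCPS1 and 9.37, 8.74, 8.67 and 9.10 in rTF. The pattern was not particular to GSTs. The hepatocyte markers Fabp1, Hpd and Tat were also highest on rCPS1 replicate 1 (8.50, 9.58 and 10.46) and lowest on rTF replicate 3 (6.19, 8.07 and 8.77). They were picked after their values were seen, and 16 of 20 hepatocyte markers were above their own mean on rTF replicate 3. The part of these cell types in the GST pattern was not tested.

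**Figure D3:**
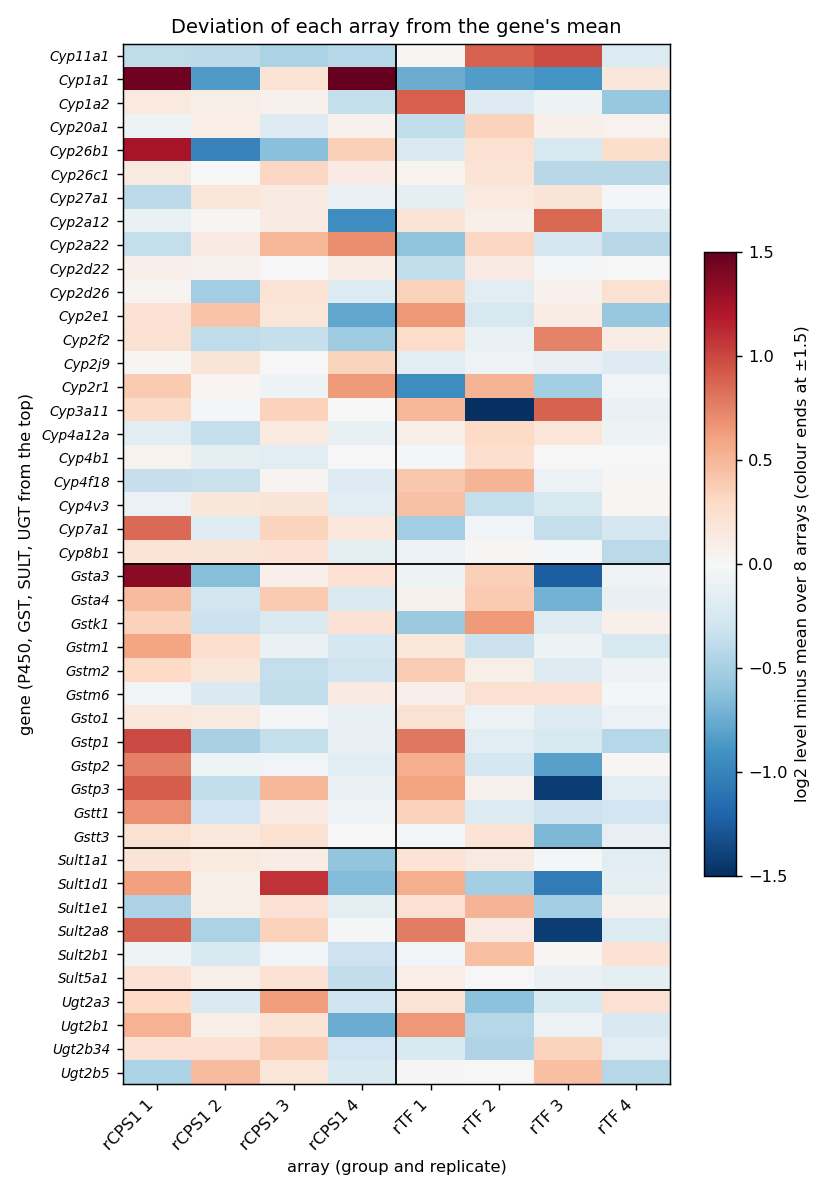
Deviation of each array's log2 level from the gene's own mean over the 8 arrays for the named enzyme genes above the silent-gene level (rows, by family), with rCPS1 columns left of rTF columns and red for higher, blue for lower. Replicate 1 of each group is red across the pi class rows, and rTF replicate 3 is blue in most GST rows.

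The CYP1 genes are the classical targets of the aryl hydrocarbon receptor, and Cyp1a1 had the highest difference of any detected enzyme gene. It was 7.06, 4.75, 5.81 and 7.11 in the rCPS1 arrays and 4.86, 4.77, 4.71 and 5.77 in the rTF arrays. Replicates 1 and 4 of rCPS1 stood above every rTF array, replicate 3 exceeded the highest rTF array slightly, and replicate 2 lay among the rTF arrays. The mean was 6.18 ± 1.13 in rCPS1 and 5.03 ± 0.50 in rTF (SD, n = 4 each). The difference was 1.16 ± 0.49, a ratio of 2.23, with an unadjusted limma p of 0.0392, an adjusted p of 0.98 and a 95% interval from 0.07 to 2.24. It rested on few arrays: leaving out single arrays gave differences from 0.85 to 1.63 and unadjusted p from 0.00149 to 0.114.

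Cyp1b1, the CYP1 enzyme of extrahepatic and mesenchymal cells, was 3.79, 4.18, 5.33 and 4.07 in the rCPS1 arrays and 2.95, 3.37, 4.58 and 3.97 in the rTF arrays. The groups overlapped, and the difference was 0.62 ± 0.39. The gene was looked up after the Cyp1a1 values were seen. Cyp1a2, given above, differed by -0.03 ± 0.28. Of the receptor's own genes, Ahr differed by -0.08 ± 0.11 and its partner Arnt by -0.05 ± 0.10. The repressor Ahrr lay under the silent-gene level at 2.82 in rCPS1 and 2.69 in rTF. Nqo1, a quinone reductase that is also a target, differed by 0.35 ± 0.25.

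The Cyp1a1 promoter window, shown for this difference, lies at chr9:57697363-57697662 on the plus strand (GRCm38.p6), and capitals mark the letters GCGTG, the core of the receptor's response element, searched on both strands.
Cyp1a1: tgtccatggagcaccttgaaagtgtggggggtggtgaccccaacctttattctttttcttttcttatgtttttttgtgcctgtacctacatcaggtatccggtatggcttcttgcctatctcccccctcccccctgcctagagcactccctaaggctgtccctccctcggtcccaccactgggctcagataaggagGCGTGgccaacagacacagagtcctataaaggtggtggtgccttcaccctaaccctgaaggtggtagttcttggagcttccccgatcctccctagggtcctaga
The single match began 54 bases before the start. GCGTG was found in 32.4% of all 32851 windows and in 20.3% of the 133 windows of member genes, so its presence does not set this gene apart. The upstream enhancer known to carry further elements lies outside the window.

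Among the detected sterol, fatty acid and eicosanoid P450s a few more genes had an unadjusted p under 0.05. Cyp7a1, the rate-limiting enzyme of bile acid synthesis, was 4.59, 3.56, 4.08 and 3.91 in the rCPS1 arrays and 3.22, 3.71, 3.39 and 3.50 in the rTF arrays. All rCPS1 arrays but replicate 2 stood above the rTF arrays, and the difference was 0.58 ± 0.21 (95% interval 0.12 to 1.04, adjusted p 0.98). Cyp2j9, of a subfamily that oxidizes arachidonic acid, was 4.74, 4.92, 4.71 and 5.06 in the rCPS1 arrays and 4.55, 4.66, 4.60 and 4.53 in the rTF arrays. Its groups did not overlap, with a difference of 0.27 ± 0.11 (adjusted p 0.98).

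In the other direction, Cyp11a1, which cleaves the cholesterol side chain to begin steroid hormone synthesis, was 3.15, 3.14, 3.05 and 3.11 in the rCPS1 arrays and 3.55, 4.42, 4.52 and 3.33 in the rTF arrays. The groups did not overlap, and every rCPS1 array lay under the silent-gene level of 3.18, so the gene counted as detected through its rTF arrays alone. The means were 3.12 ± 0.04 in rCPS1 and 3.95 ± 0.60 in rTF (SD, n = 4 each), with an adjusted p of 0.98 in limma, and no size of difference is read against a group that was not above background. A second row for this gene lay under that level in both groups, at 2.06 in rCPS1 and 2.22 in rTF.

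Cyp4f18, which hydroxylates leukotrienes and is known from mouse neutrophils, was 5.03, 5.04, 5.42 and 5.18 in the rCPS1 arrays and 5.78, 5.88, 5.29 and 5.39 in the rTF arrays. A single rCPS1 array reached into the rTF range, and the difference was -0.42 ± 0.16 (adjusted p 0.98). The neutrophil marker mean on the same arrays was 6.19, 6.82, 6.75 and 5.61 in rCPS1 and 7.14, 7.75, 8.04 and 7.38 in rTF, and its part in this difference was not tested.

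Cyp2f2, a naphthalene-oxidizing P450 of airway and periportal liver cells, was 6.16, 5.56, 5.59 and 5.41 in the rCPS1 arrays and 6.21, 5.84, 6.68 and 6.05 in the rTF arrays. Its difference of -0.51 ± 0.21 did not hold in its second row, which differed by 0.49 in the opposite direction. Sult2b1, a cholesterol sulfotransferase, was 3.37, 3.21, 3.40 and 3.12 in the rCPS1 arrays and 3.40, 3.88, 3.45 and 3.65 in the rTF arrays. It lay close to the silent-gene level, and the difference was -0.32 ± 0.14. Another 4 genes with an unadjusted p under 0.05, named after their values were seen, were under that level by their means over 8 arrays. These were Cyp3a57, whose groups did not overlap, Cyp2j13, Cyp2b19 and Cyp2d9, at 1.75, 3.15, 1.57 and 2.65. Their differences mostly compare background readings and are not given.

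**Figure D4:**
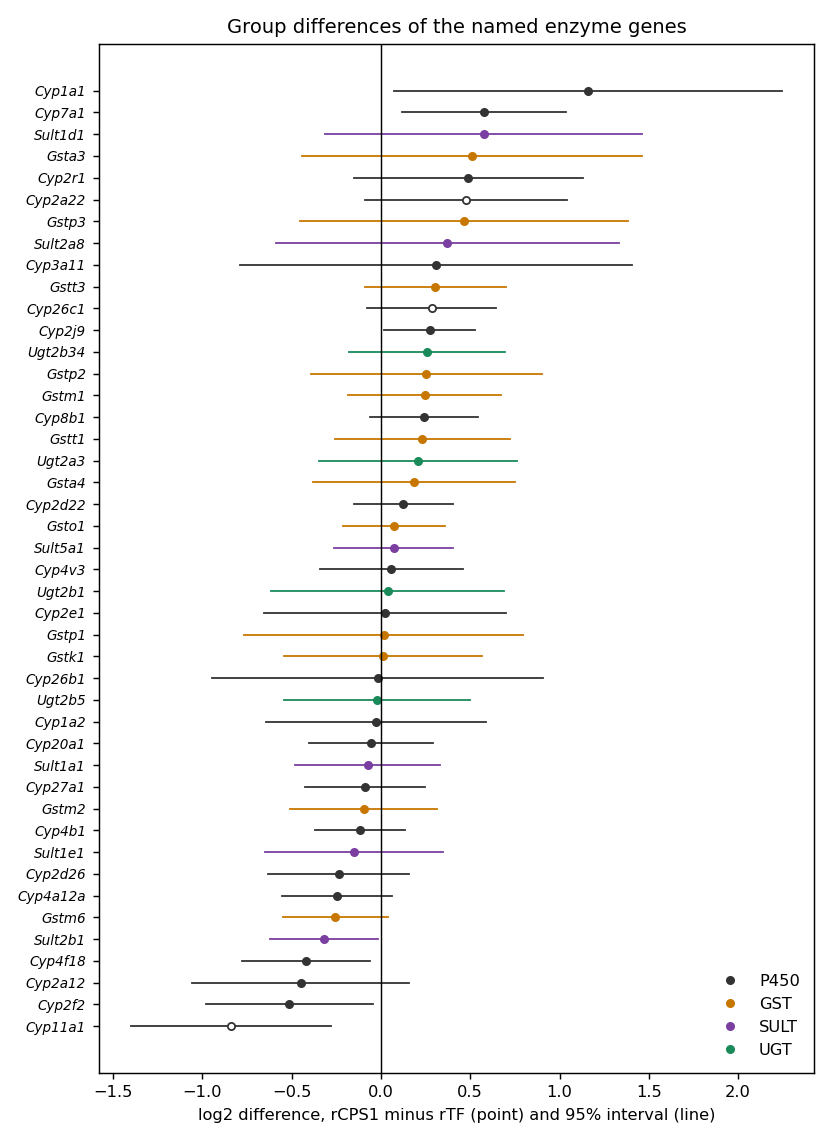
Difference in log2 level, rCPS1 minus rTF, with its 95% interval, for the named enzyme genes above the silent-gene level. Points are coloured by family, and open points mark genes with 1 group mean under the silent-gene level, Cyp11a1 among them, whose size is not read. Of the filled points, Cyp1a1 (1.16) lies farthest from 0.

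No other named P450 had an unadjusted p under 0.05. Cyp4b1, known mainly from lung, was 9.59 ± 0.10 in rCPS1 and 9.71 ± 0.13 in rTF. Cyp26b1, which clears retinoic acid, was 9.30, 7.06, 7.44 and 8.42 in the rCPS1 arrays and 7.85, 8.29, 7.83 and 8.33 in the rTF arrays. Its rCPS1 arrays spanned both extremes, and the difference was -0.02 ± 0.42. Cyp27a1, the mitochondrial sterol hydroxylase of the acidic bile acid pathway, differed by -0.09 ± 0.15. Cyp4v3, a fatty acid hydroxylase, differed by 0.06 ± 0.18, and Cyp20a1, which has no settled substrate, by -0.06 ± 0.16. Cyp8b1, which sets the share of cholic acid, differed by 0.24 ± 0.14, and Cyp2r1, a vitamin D hydroxylase, by 0.49 ± 0.29. Cyp2a12, a hepatic steroid hydroxylase, was 6.39 ± 0.48 in rCPS1 and 6.84 ± 0.46 in rTF. Cyp2d26 differed by -0.24 ± 0.18, and Cyp4a12a, an arachidonic acid hydroxylase, by -0.25 ± 0.14. Cyp2a22 was 3.51 in rCPS1 and 3.04 in rTF, and Cyp26c1, a retinoic acid hydroxylase, 3.35 in rCPS1 and 3.07 in rTF, each with its rTF mean under the silent-gene level. Over the 98 P450s 48 differences were above 0 and 50 below, with a median of -0.0042.

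Outside the acetaminophen lists, Sult2a8, which sulfates bile acids in mouse liver, was 7.08, 5.72, 6.54 and 6.18 in the rCPS1 arrays and 6.96, 6.31, 4.77 and 5.99 in the rTF arrays. Sult1d1, which sulfates catecholamines and phenols, was 6.30, 5.78, 6.77 and 5.04 in the rCPS1 arrays and 6.23, 5.18, 4.64 and 5.55 in the rTF arrays. Both were lowest on rTF replicate 3, and their differences were 0.37 ± 0.43 and 0.57 ± 0.40. Of the UGTs, Ugt2b1 was 6.91, 6.48, 6.59 and 5.65 in the rCPS1 arrays and 7.04, 5.97, 6.31 and 6.16 in the rTF arrays, a difference of 0.04 ± 0.29. Ugt2b34 was 5.72, 5.71, 5.87 and 5.21 in the rCPS1 arrays and 5.27, 5.04, 5.84 and 5.32 in the rTF arrays, a difference of 0.26 ± 0.19. The groups overlapped in all 4 genes. Sult5a1 differed by 0.07 ± 0.15, Ugt2b5 by -0.02 ± 0.23 and Ugt2a3 by 0.21 ± 0.25.

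The detected enzyme genes varied more between arrays than genes at large. Their level spanned more than 1 log2 unit over the 8 arrays in 39 of 74 (52.7%), against 2627 of 13568 detected genes (19.4%). These sets were not matched by level, since 64.9% of the detected enzyme genes and 81.7% of all detected genes lay above the median gene. Of the chemosensory receptor genes, most of them at background, 31.3% spanned as much. The median SD within a group was 0.37 for these enzyme genes and 0.21 for all detected genes, and the median standard error of a difference was 0.22 against 0.15. The same span was exceeded by 14 of 20 hepatocyte markers, 7 of 9 Kupffer cell, 7 of 8 neutrophil, 6 of 7 stellate cell, 5 of 6 T and NK cell and 4 of 4 B cell markers. It was exceeded by 3 of 4 periportal, 2 of 6 pericentral, 3 of 6 monocyte and 2 of 4 bile duct markers, and by 0 of 6 macrophage and 0 of 8 sinusoidal endothelial markers. The part of these cell types in the spread of the enzyme genes was not tested.

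**Figure D5:**
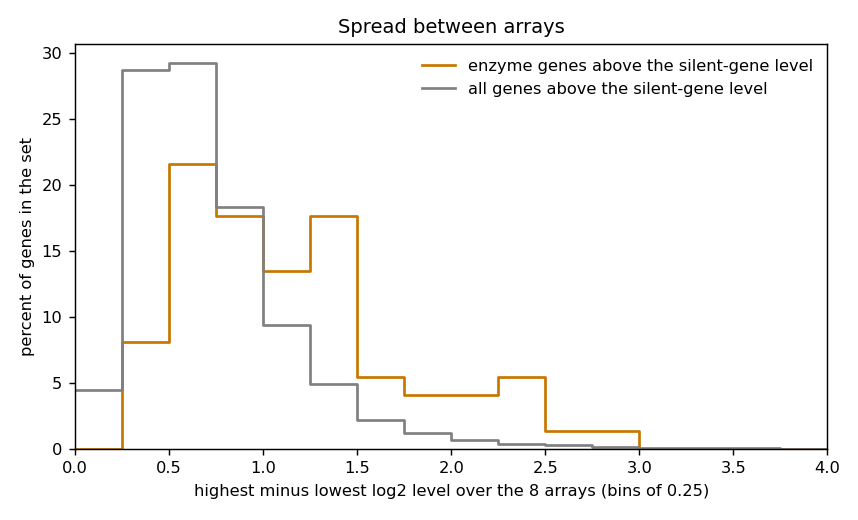
Share of genes (%) in bins of the range of their log2 level over the 8 arrays, for the 74 enzyme genes above the silent-gene level and for all 13568 such genes. The enzyme genes exceed a range of 1 in 52.7%, against 19.4% of all detected genes.

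The partners of these enzymes, taken from lists of cofactor supply, electron donors, microsomal GSTs, transporters, regulators and other drug enzymes, gave 56 measured genes, of which 55 were detected. Their differences were above 0 in 36 and below 0 in 20, with a median of 0.067, and 0 higher and 2 lower had an unadjusted p under 0.05. That is 0% higher and 3.57% lower, near the shares of all genes (1.88% and 2.79%). The pair were Abcc2, which exports glucuronides and glutathione conjugates into bile, at 3.74 ± 0.34 in rCPS1 and 4.18 ± 0.13 in rTF, and the sulfate carrier Slc26a1, at 3.13 in rCPS1, under the silent-gene level, and 3.45 in rTF. The glutathione synthesis genes Gclc and Gclm differed by 0.21 ± 0.31 and 0.33 ± 0.32. Ugdh, which makes the glucuronic acid donor, differed by 0.11 ± 0.16, and Papss2, which makes the sulfate donor, by 0.18 ± 0.15. The xenobiotic receptors Nr1i3 and Nr1i2 differed by 0.48 ± 0.35 and 0.08 ± 0.33, and Nfe2l2, the regulator of antioxidant genes, by 0.07 ± 0.12.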

How the data were processed

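Log2 expression values of 8 Affymetrix arrays were used as the authors deposited them. Per the submitters' processing notes, RMA and limma were used, with versions not given in the sources used here. RMA takes background correction, quantile normalization and probe summary together, so levels are relative to the other genes of an array and a shift of all genes would not be seen. Probe sets were named from the platform annotation. Of 41345 rows, 23521 carried exactly 1 symbol, 1814 several and 16010 none, and rows without exactly 1 symbol were left out. The row of highest mean was kept, giving 22180 genes.

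Groups follow the sample titles. The fit used limma 3.58.1 (lmFit and eBayes, R 4.3.3, two-sided, no covariates), with Benjamini-Hochberg adjustment over all 22180 genes, and was first tested on simulated data. Alternatives were a low-level filter, trended and robust variances, array weights, a replicate block, the mean of a gene's rows, hepatocyte marker level as a covariate and each array left out in turn. Precision is limited by the number of arrays. Correlations between arrays over all genes ran from 0.982 to 0.992.

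The named genes are the measured acetaminophen genes, the 8 P450s and 8 GSTs and the 4 SULTs and 4 UGTs of highest mean, the 8 detected members of smallest p in each direction, up to 3 genes of smallest p in each partner list, and detected members whose groups do not overlap. Genes named beyond these (Ahr, Arnt, Ahrr, Nqo1 and other partners, and those said to be so in the text) were chosen for their known roles or after their values were seen. The members and lists were chosen with earlier results of these data known. Promoter windows are from RefSeq (GRCm38.p6), of which 115 of 148 members had at least 1.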

Additional observations from a re-analysis of the deposited data

Results flagged for a closer look

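For each named gene and group the array farthest from the other 3 was checked for standing apart (Dixon's ratio at the 95% level). Of 140 groups 11 did, where chance gives about 1 in 20, or 7. Among the acetaminophen genes, Cyp1a2 stood at 4.26 in rCPS1 replicate 4 (others 4.68 to 4.76) and Sult1a1 at 6.85 in the same array (others 7.56 to 7.63). Gstp2 stood at 8.65 in rCPS1 replicate 1 (others 7.74 to 7.85), and Gstt1 at 5.48 in rTF replicate 1 (others 4.82 to 4.93). Among the other P450s, Cyp1a1 stood at 5.77 in rTF replicate 4 (others 4.71 to 4.86), Cyp8b1 at 3.58 in rCPS1 replicate 4 (others 3.91 to 3.93) and Cyp4b1 at 9.90 in rTF replicate 2 (others 9.63 to 9.66). Among the partner genes, the cytochrome b5 reductase gene Cyb5r3 stood at 10.80 in rCPS1 replicate 1 (others 10.52 to 10.55). The microsomal GST gene Mgst3 stood at 5.01 in the same array (others 4.25 to 4.35). The drug efflux pump gene Abcb1a stood at 5.79 in rTF replicate 1 (others 6.51 to 6.64), and the receptor gene Nr1i3 at 3.36 in rTF replicate 3 (others 4.33 to 4.48).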

How the results depend on the processing

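Under every alternative 0 genes passed an adjusted p of 0.05 in limma, with 664 (only detected genes tested) to 1240 genes at an unadjusted p under 0.05 and a smallest adjusted p of 0.246, without rTF replicate 1. The 11 enzyme genes at an unadjusted p under 0.05 became 7 when only detected genes entered the fit, which leaves 74 enzyme genes to test, and leaving out single arrays gave as few as 7 (rTF replicate 1 absent) and as many as 14 (rTF replicate 2 absent), which are 4.73% against 5.59% of all genes and 9.46% against 4.14%. The median difference of the enzyme genes ranged from -0.020 to 0.055. Same-numbered arrays had correlations of deviations of -0.0691, -0.076, -0.00295 and 0.16. No pairing was plain from these 4 values, which are too few to exclude a pairing. The fit with a replicate block gave 12 enzyme genes at an unadjusted p under 0.05 and 0 genes past the adjusted threshold. The 74 enzyme genes counted as detected became 45 with the 99th percentile and 48 with the median of all genes as the level, which are higher by construction, 60 when every array had to pass, and 72 with the mean of a gene's rows. Across 46 named members and 642 alternative values, 1 value moved by over 1 SD (Cyp2f2 with its rows averaged, unadjusted p 0.951), and 44 values in 16 members changed sign, among differences that had not passed the test. No detection call per probe was used, and closely related genes may share probes, which limits low levels and paralogs.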

Other observations

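Several sterol and fatty acid P450s outside the acetaminophen lists, picked for their known roles after their values were seen, were above the silent-gene level. Cyp7b1, an oxysterol hydroxylase of the acidic bile acid pathway, was 5.96 ± 0.61 in rCPS1 and 6.02 ± 0.55 in rTF (SD, n = 4 each). Cyp39a1, another oxysterol hydroxylase, was 5.20 ± 0.15 in rCPS1 and 5.12 ± 0.20 in rTF. Cyp51, the lanosterol demethylase of cholesterol synthesis, was 5.73, 5.06, 4.97 and 5.50 in the rCPS1 arrays and 4.38, 6.33, 5.44 and 6.27 in the rTF arrays, so the rTF arrays held both extremes. Cyp2c29, a CYP2C enzyme of mouse liver, was 6.89, 5.32, 5.97 and 6.20 in the rCPS1 arrays and 5.76, 5.73, 4.98 and 5.95 in the rTF arrays.

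The other measured steroid hormone P450s were under that level in both groups by their means. Cyp17a1 was 2.59 ± 0.19 in rCPS1 and 2.68 ± 0.42 in rTF, and Cyp21a1 was 2.21 ± 0.24 in rCPS1 and 2.38 ± 0.53 in rTF. Cyp11b1, which makes corticosterone in the adrenal cortex, was 2.07, 2.04, 1.83 and 2.34 in the rCPS1 arrays and 1.86, 1.69, 4.96 and 1.80 in the rTF arrays. The single high array, rTF replicate 3, was also the highest for Cyp11a1, at 4.52. It was the highest for Cyp21a1 and Cyp11b2 too, at 3.11 and 2.04, both under the silent-gene level. Cyp11a1 was nearly as high on rTF replicate 2, at 4.42, where Cyp11b1 was lowest, at 1.69. Cyp17a1 was highest on rTF replicate 2, at 3.30, and stood at 2.50 on rTF replicate 3.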
